A study of Mus with 15 samples.

Results

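The subunits of the mitochondrial respiratory chain and of ATP synthase were followed in RNA from mouse skin and skin wounds. Genes were taken by name from the protein-coding rows of the count table: Nduf followed by a, b, c, s or v and a digit, Sdha to Sdhd, names beginning with Uqcr, Atp5 or mt-, and Cox followed by a digit from 4 to 8. These names gave 98 rows, and 95 of them had at least 10 counts in at least 5 libraries, out of 55657 gene models in the table. Of the 95, 82 are nuclear genes (37 of complex I, 4 of complex II, 8 of complex III, 16 of complex IV and 17 of complex V) and 13 are encoded by mitochondrial DNA. The 3 rows left out were Cox7b2 and Cox8c, which are testis forms of complex IV subunits, and a further gene model under the name Atp5o, all at 0 counts. Complexes follow the gene names, so Ndufa4, whose protein is now placed in complex IV, is counted with complex I.

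The groups were uninjured skin of healthy mice (normal skin, labelled as sham), skin from wounds of healthy mice (healthy wound) and skin from wounds of type I diabetic mice (diabetic wound), with 5 libraries each. Healthy wound against normal skin addresses wounding, diabetic wound against healthy wound addresses diabetes among wounds, and diabetic wound against normal skin combines both. Uninjured skin of diabetic mice was not analysed here. Not given in the sources used here were strain, sex, age, time after wounding and how the diabetes was brought about. Whether the libraries of a group came from separate animals is not stated in the labels, so p-values refer only to spread between these libraries, which may be technical.

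Complexes I and II pass electrons from NADH and succinate to ubiquinone, complex III passes them on to cytochrome c, and complex IV passes them to oxygen. Complexes I, III and IV pump protons across the inner membrane, and complex V, the ATP synthase, uses their return to make ATP. Mitochondrial DNA encodes a core set of subunits of complexes I, III, IV and V, while all of complex II and most other subunits are made from nuclear genes and imported. Some complex IV subunits exist in a common form and in a form made mainly in heart and skeletal muscle. Skin holds keratinocytes, fibroblasts and fat, and in mice also a sheet of skeletal muscle below the dermis, and these cells differ in how much they respire.

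Total counts per library ran from 15693964 to 17777165. Keratinocyte genes were present in all 15 libraries, as the tissue label asks: Krt5 averaged 3200, 2560 and 2320 CPM (the usual unit of a gene's counts relative to its library's total, here with totals scaled by TMM) and Krt14 averaged 4020, 6470 and 4750 CPM in normal skin, healthy wound, then diabetic wound. The groups differed in cell content. Of 20 skeletal muscle markers, 19 had enough counts to be tested and Tnnc2 was at 0 in 13 libraries; the list summed to between 5290 and 49200 CPM in normal skin, 2200 and 15000 CPM in healthy wound and 3170 and 26200 CPM in diabetic wound. The 16 adipocyte markers summed to 5190 to 9500, 1660 to 3910 and 1760 to 14800 CPM, the 8 fibroblast markers to 29800 to 54800, 23200 to 105000 and 1850 to 16700 CPM, and the 11 neutrophil markers to 117 to 443, 869 to 4280 and 945 to 4160 CPM, in the same order of groups. Normal skin replicate 2 stood apart. Among protein-coding genes other than the chain's, its genes of at most 2000 bases lay 0.87 below its genes of over 6000 bases on the log2 scale, after each gene was centred over all libraries, whereas the other 14 libraries lay between -0.17 and 0.44. The nuclear chain genes are short, with a median of 1559.5 bases against 4648 for other protein-coding genes, and 53 of the 82 have at most 2000 bases.

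On average, nuclear chain genes took the smallest share of counts in healthy wounds, and mitochondrially encoded genes took a smaller share in both wound groups than in normal skin. The 82 nuclear genes together took 0.845, 0.610, 0.835, 0.956 and 0.882% of all counts in normal skin, 0.694, 0.715, 0.733, 0.721 and 0.576% in healthy wound, and 0.974, 0.858, 0.805, 0.876 and 0.766% in diabetic wound. All 5 diabetic wound libraries lay above all 5 healthy wound libraries, and normal skin did so except for replicate 2. The share of the 13 mitochondrial genes was 3.07 ± 0.303% for normal skin, 2.34 ± 0.217% for healthy wound and 2.33 ± 0.416% for diabetic wound (SD, n = 5 each). The normal skin libraries ran from 2.72 to 3.51%, above all healthy wound libraries (at most 2.59%), while diabetic wound replicate 1, at 2.78%, lay inside the normal range and replicate 5, at 2.71%, just under it. Mitochondrial counts per nuclear chain count were 2.85, 2.11, 2.55, 2.60 and 3.54 in diabetic wound, between 3.22 and 3.59 in healthy wound and between 3.08 and 4.96 in normal skin. Diabetic wound replicates 1 to 4 lay below every library of the other groups, and replicate 5 lay within them. These shares are sums over chosen genes and carry no test. In bulk tissue a smaller number of cells of one type and less RNA per cell cannot be told apart.

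**Figure D1:**
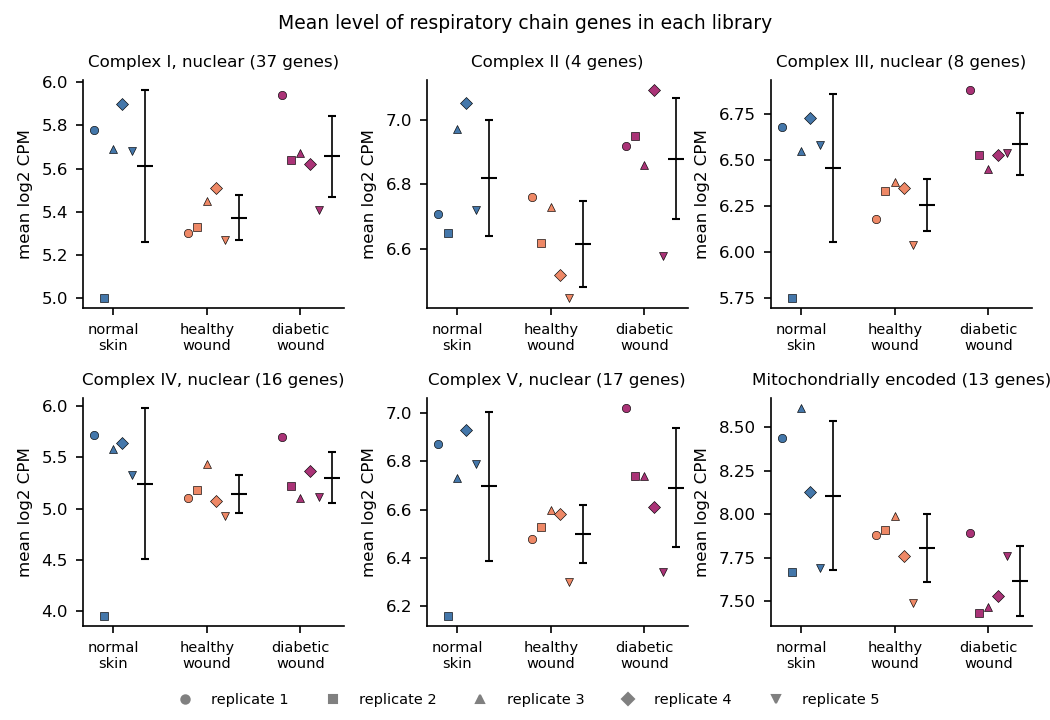
Mean log2 CPM (y axis) of the respiratory chain genes in each library (x axis, by group), for the nuclear genes of each complex and for the 13 mitochondrially encoded genes; symbols mark the replicate, and bars give the group mean and SD over 5 libraries. Normal skin replicate 2 lies lowest in its group in every panel, at 5.00 for complex I and 3.95 for complex IV, and the healthy wound libraries lie between 5.27 and 5.51 for complex I. The y axes do not start at 0.

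Per length, 7 of the 13 mitochondrial genes stood above every nuclear one, at 1700 to 7630 CPM per kilobase in normal skin, and the other 6, whose counts are uncertain, were at 4.98 to 97.2. mt-Co1, the catalytic core of complex IV, stood at 7630, 6530 and 6420 CPM per kilobase in normal skin, healthy wound, then diabetic wound. The highest nuclear subunit per length was Atp5a1, the alpha subunit of ATP synthase, at 253, 192 and 253 CPM per kilobase. Mean levels over all libraries of the nuclear genes ran from 1.09 CPM for Cox6b2, a testis-type subunit, to 899 CPM for Atp5b, the catalytic beta subunit of ATP synthase.

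The mitochondrial genes fell into 2 sets by coverage, and the split was made after the values were seen. mt-Nd1, mt-Nd2, mt-Co1, mt-Nd4, mt-Nd5, mt-Nd6 and mt-Cytb had 340 to 1740 counts per base over the 15 libraries, 6487529 counts in all. The 6 neighbouring genes mt-Co2, mt-Atp8, mt-Atp6, mt-Co3, mt-Nd3 and mt-Nd4l, which lie together at positions 7013 to 10173 of the mitochondrial genome as the table gives them (its genome build is not stated), had 0.99 to 20.9 counts per base, 47163 counts in all. On chromosome 1, at 24611535 to 24616197 on the minus strand, the table lists 7 unprocessed pseudogenes, Gm28439 to Gm29216, that hold 34705 counts, 1.26 to 14.5 per base. Gm28661, Gm10925, Gm28437, Gm28438 and Gm10222 have 681, 678, 783, 345 and 294 bases, beside 684, 681, 784, 348 and 297 bases for mt-Co2, mt-Atp6, mt-Co3, mt-Nd3 and mt-Nd4l. It is not stated how the authors' counting treated reads that match both places, so the values of these 6 mitochondrial genes are uncertain and are given apart. mt-Nd6 lies on the minus strand and overlaps the end of mt-Nd5, and the library kit does not mark strand, so reads in the overlap cannot be assigned. Over the rest of mt-Nd6, RNA of the plus and minus strands cannot be told apart either, so its values may mix both.

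**Figure D2:**
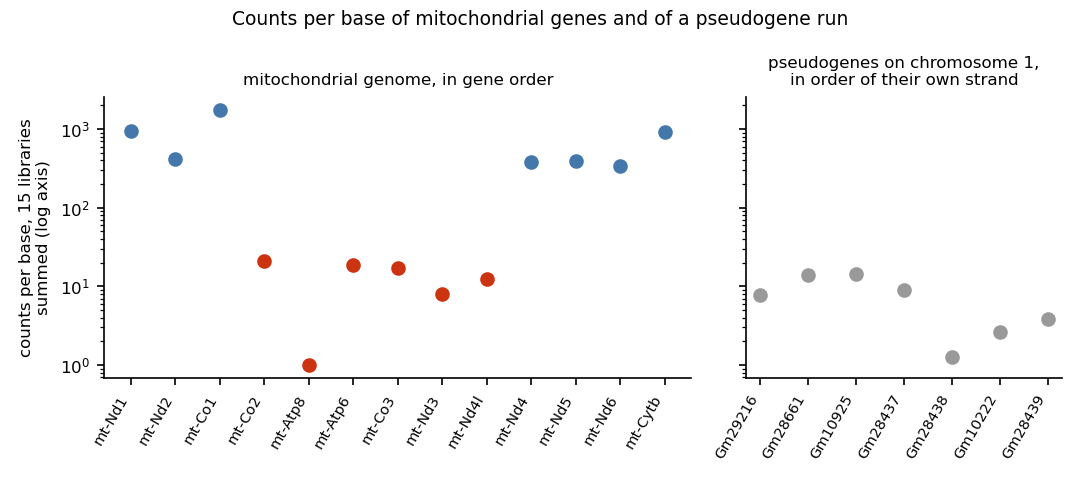
Counts per base summed over the 15 libraries (log y axis) for the 13 mitochondrially encoded protein genes in genome order, 7 of high count in blue and 6 of low count in red, and for 7 pseudogenes on chromosome 1 in grey. The low block between mt-Co1 and mt-Nd4 has 0.99 to 20.9 counts per base, near the 1.26 to 14.5 of the pseudogenes, and the other mitochondrial genes have 340 to 1740.

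Wounding of healthy mice went with small downward differences across the chain, of which 1 passed the test. Ndufv1 fell, the subunit of complex I that binds NADH; by the edgeR quasi-likelihood test at an adjusted p under 0.05, 1 of 95 chain genes was lower and 0 were higher in healthy wound, where 1.13% of all 17122 genes tested were called (0.35% lower), so the share called was near the background. The direction was broader than the calls: 82 of 95 had a negative log2 fold change and 15 had all 5 healthy wound libraries below all 5 normal skin libraries, as 2.89% of all genes did, while 0 lay apart in the upward direction, as 3.87% of all genes did. At an unadjusted p under 0.05, 28 were lower and 1 was higher, beside 7.49% and 8.82% of all genes. The median log2 fold change was -0.22 over the nuclear genes and -0.40 over the mitochondrial genes, beside 0.01 over all genes tested. By complex the nuclear medians were -0.32 for complex I (34 of 37 negative), -0.26 for complex II (3 of 4), -0.23 for complex III (7 of 8), -0.06 for complex IV (9 of 16) and -0.19 for complex V (17 of 17).

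Ndufv1 (chromosome 19, 4007497 to 4012806, minus strand) was at 122, 106, 109, 129 and 110 CPM in normal skin, 75.0, 90.1, 84.8, 73.2 and 71.9 CPM in healthy wound and 122, 120, 98.9, 113 and 107 CPM in diabetic wound. The healthy wound libraries lay below every library of both other groups. The log2 fold change in healthy wound was -0.54 ± 0.12 (SE; edgeR adjusted p = 0.0415). Ndufs1, the largest subunit of complex I and part of its electron path, was at 70.5, 105, 75.4, 106 and 93.8 CPM in normal skin and 65.2, 63.0, 60.7, 59.1 and 62.4 CPM in healthy wound. These groups did not overlap either, but the log2 fold change of -0.54 missed the threshold (edgeR adjusted p = 0.073).

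In complexes II and III the core subunits lay lowest. Sdha, the flavoprotein that oxidises succinate, averaged 226 ± 28.7 CPM in normal skin and 169 ± 10.9 CPM in healthy wound (SD, n = 5 each; log2 fold change -0.41, edgeR adjusted p = 0.295). Uqcrc1 and Uqcrc2, the core proteins of complex III, had log2 fold changes of -0.48 and -0.47 (edgeR adjusted p = 0.0942 and 0.0713). For all of these, no healthy wound library reached any normal skin library. Sdhd, a membrane anchor of complex II, did not share this: it averaged 79.5 ± 22.5 and 82.9 ± 6.41 CPM, with overlapping groups.

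In complex V all 17 log2 fold changes were negative, and the abundant catalytic subunits lay apart between the groups. Atp5b was at 927, 1010, 886, 1130 and 1040 CPM in normal skin and 737, 797, 777, 731 and 651 CPM in healthy wound, and Atp5a1 at 716, 872, 726, 855 and 793 CPM against 612, 637, 647, 591 and 530 CPM. Neither gene's groups overlapped, and neither passed the test (log2 fold changes -0.44 and -0.39, edgeR adjusted p = 0.147 and 0.176). Cox4i1, the common form of subunit 4 of complex IV, averaged 248 ± 67.7 CPM in normal skin and 245 ± 24.1 CPM in healthy wound.

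The single call in healthy wounds rested on most of its libraries: leaving out any of the 5 normal skin libraries, or healthy wound replicate 1, 3, 4 or 5, gave 0 calls, and of these libraries only healthy wound replicate 2 could be left out with Ndufv1 still called. The diabetic wound libraries enter the fit through the shared spread: without replicate 1 or 2 of that group the count was 0, without replicate 5 it was 2 and without replicates 4 and 5 together it was 3, all lower. Calls over all genes, 193 in the full fit, moved as well. They were 59, 100, 92, 10 and 71 without normal skin replicates 1 to 5. Without healthy wound replicates 1 to 5 they were 34, 269, 26, 65 and 3. For diabetic wound replicates 1, 2 and 5 they were 173, 141 and 392, and 605 without replicates 4 and 5 together. The log2 fold change of Ndufv1 stayed between -0.59 and -0.50 when any single library was left out. DESeq2 called 11 chain genes and limma-voom 24, all lower, and 1050 and 1853 of all genes. Normal skin replicate 2 held nuclear levels down, and without it the nuclear median was -0.35. The 1199 other protein-coding genes of at most 2000 bases had a median of 0.06 in this comparison. With the mean of the 19 muscle markers as a covariate, 0 chain genes were called, the nuclear median was -0.28 and the mitochondrial median -0.17.

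**Figure D3:**
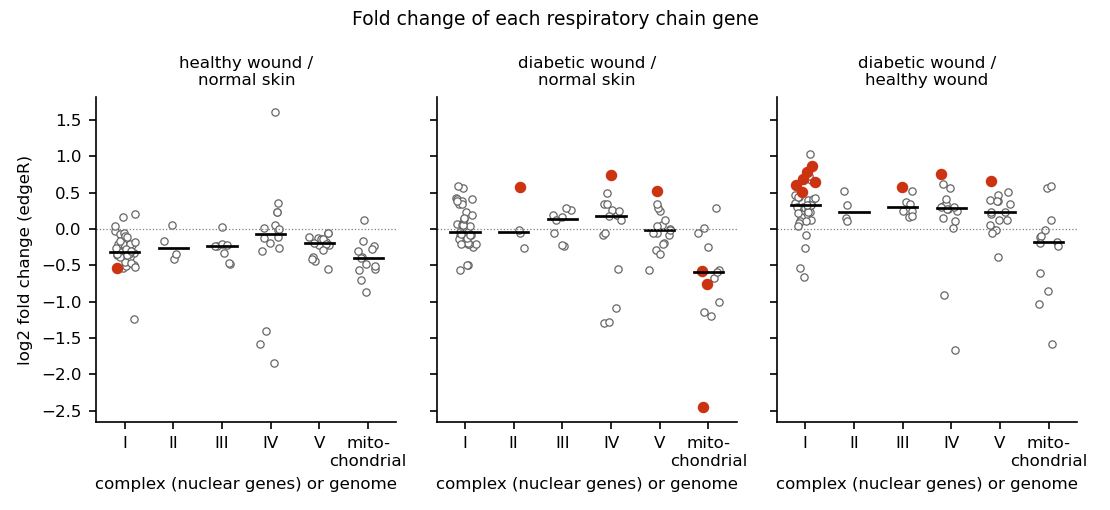
Log2 fold change (y axis) of each of the 95 respiratory chain genes in the 3 comparisons, by complex for nuclear genes and for the mitochondrially encoded genes (x axis); filled red points passed the edgeR test at an adjusted p under 0.05 and bars are medians. The medians lie below 0 in every class in healthy wound against normal skin, nuclear medians lie between 0.24 and 0.33 in diabetic wound against healthy wound, and the mitochondrial median is -0.59 in diabetic wound against normal skin.

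In wounds of diabetic mice 9 nuclear chain genes rose above their levels in wounds of healthy mice, and 6 of them belong to complex I. Among them are Ndufs3, Ndufv1, Ndufb6, Ndufb7 and Ndufb8 of complex I, Uqcrfs1 of complex III, Cox4i1 of complex IV and Atp5l of complex V; 0 of the 95 fell at an adjusted p under 0.05, and DESeq2 and limma-voom each called 1 lower, Cox4i2. Over all genes tested 9.15% were called, 5.13% higher and 4.02% lower, so 9 of 95 was near the background when both directions were counted, and all 9 were higher. Of the 82 nuclear genes, 72 had a positive log2 fold change with a median of 0.30, beside -0.02 over all genes tested, and 16 had all 5 diabetic wound libraries above all 5 healthy wound libraries, as 5.27% of all genes did, while 0 lay apart below, as 4.52% of all genes did. At an unadjusted p under 0.05, 26 nuclear genes were higher and 2 lower, beside 15% and 13.8% of all genes. The background was higher among the 10758 genes with a mean of at least 10 CPM, whose median was 0.05. Of these, 764 were called higher and 421 lower, and 772 lay apart above and 444 below. At an unadjusted p under 0.05, 2075 of them were higher and 1388 lower. The medians were 0.33 for complex I, 0.24 for complex II, 0.30 for complex III, 0.29 for complex IV and 0.24 for complex V, while the mitochondrial genes had a median of -0.18 with 0 called by edgeR and 1, mt-Nd1, at an unadjusted p under 0.05.

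Ndufs3, a subunit of the arm of complex I that faces the matrix, was at 49.2, 49.1, 47.3, 51.6 and 41.4 CPM in healthy wound and 87.2, 77.6, 69.1, 71.0 and 79.5 CPM in diabetic wound, with normal skin between 47.7 and 80.7 CPM. Every diabetic wound library lay above every healthy wound library, and normal skin overlapped both. The log2 fold change was 0.69 ± 0.14 (SE; edgeR adjusted p = 0.0172). Ndufb8, a subunit of the membrane arm, was at 42.4, 35.6, 46.5, 39.1 and 34.4 CPM in healthy wound and 83.3, 63.2, 67.9, 60.8 and 67.6 CPM in diabetic wound. Its groups did not overlap, and the log2 fold change was 0.79 ± 0.17 (SE; edgeR adjusted p = 0.0189).

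Ndufv1 had a log2 fold change of 0.51 ± 0.12 (SE; edgeR adjusted p = 0.0241), which brought it to 112 ± 9.63 CPM, beside 115 ± 9.68 CPM in normal skin (SD, n = 5 each). Ndufb6 and Ndufb7, accessory subunits of the membrane arm, had log2 fold changes of 0.65 and 0.61 (edgeR adjusted p = 0.0303 and 0.0338), both without overlap.

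Outside complex I the calls were spread over single genes. Cox4i1 was at 299, 132, 255, 293 and 264 CPM in normal skin, 234, 242, 247, 284 and 219 CPM in healthy wound and 502, 420, 375, 379 and 395 CPM in diabetic wound. All diabetic wound libraries lay above all libraries of the other groups, with a log2 fold change of 0.76 ± 0.20 over healthy wound (SE; edgeR adjusted p = 0.0322). Atp5l, a subunit of the membrane part of ATP synthase, was at 62.6, 58.1, 66.6, 70.6 and 52.2 CPM in healthy wound and 124, 91.4, 93.8, 81.1 and 101 CPM in diabetic wound. These groups did not overlap (log2 fold change 0.66 ± 0.17 SE, edgeR adjusted p = 0.0311). Uqcrfs1, the iron-sulfur protein of complex III, averaged 95.4 ± 15.3 and 143 ± 26.3 CPM with overlapping groups (log2 fold change 0.58, edgeR adjusted p = 0.0388), and Sdhd, at 0.52, missed the threshold (edgeR adjusted p = 0.0724).

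Which of these genes passed depended on single libraries. Ndufs3 and Ndufb8 stayed called when any of the 15 libraries but healthy wound replicate 5 was left out, and without that library 0 chain genes were called. The count was 2 without healthy wound replicate 1, 4 without replicate 2, 4 without replicate 3 and 2 without replicate 4, and 4, 2 and 3 without diabetic wound replicates 1, 2 and 5. Without normal skin replicate 2, which enters the fit through the shared spread, it was 17, of which 16 were higher and Cox4i2 lower, with 2294 of all genes called and a nuclear median of 0.31. Calls over all genes, 1567 in the full fit, were 400, 744, 807, 477 and 230 without healthy wound replicates 1 to 5. They were 854, 252 and 517 without diabetic wound replicates 1, 2 and 5, and 2925 and 1934 without replicates 3 and 4. Diabetic wound replicates 4 and 5 stood apart in cell content: the 8 basal keratinocyte markers averaged 6.0 log2 CPM in replicate 4 and the 8 fibroblast markers 6.91 log2 CPM in replicate 5, beside group medians of 9.02 and 9.63. Without both of them Ndufs3, Ndufb8 and Ndufv1 were called and the nuclear median was 0.37. Short genes moved in the same direction: the 1199 other protein-coding genes of at most 2000 bases had a median of 0.19, with 7.26% called higher and 2.42% lower, and a fit with an offset for gene length gave a nuclear median of 0.19 and again 9 calls, 7 of them shared. Other markers also differed between the wounds. Of 10 tested neutrophil markers 3 were called higher, 6 had a positive and 4 a negative log2 fold change, and the summed list averaged 2298 CPM in healthy and 2291 CPM in diabetic wound. Of 8 fibroblast markers 3 were called lower and 7 were negative. All 11 hair follicle markers were negative and 3 were called lower (summed 8.56 to 2040 CPM in healthy and 1.46 to 16.2 CPM in diabetic wound), and of 16 adipocyte markers 1 was called higher and 3 lower. The part of these markers in the result was not tested.

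**Figure D4:**
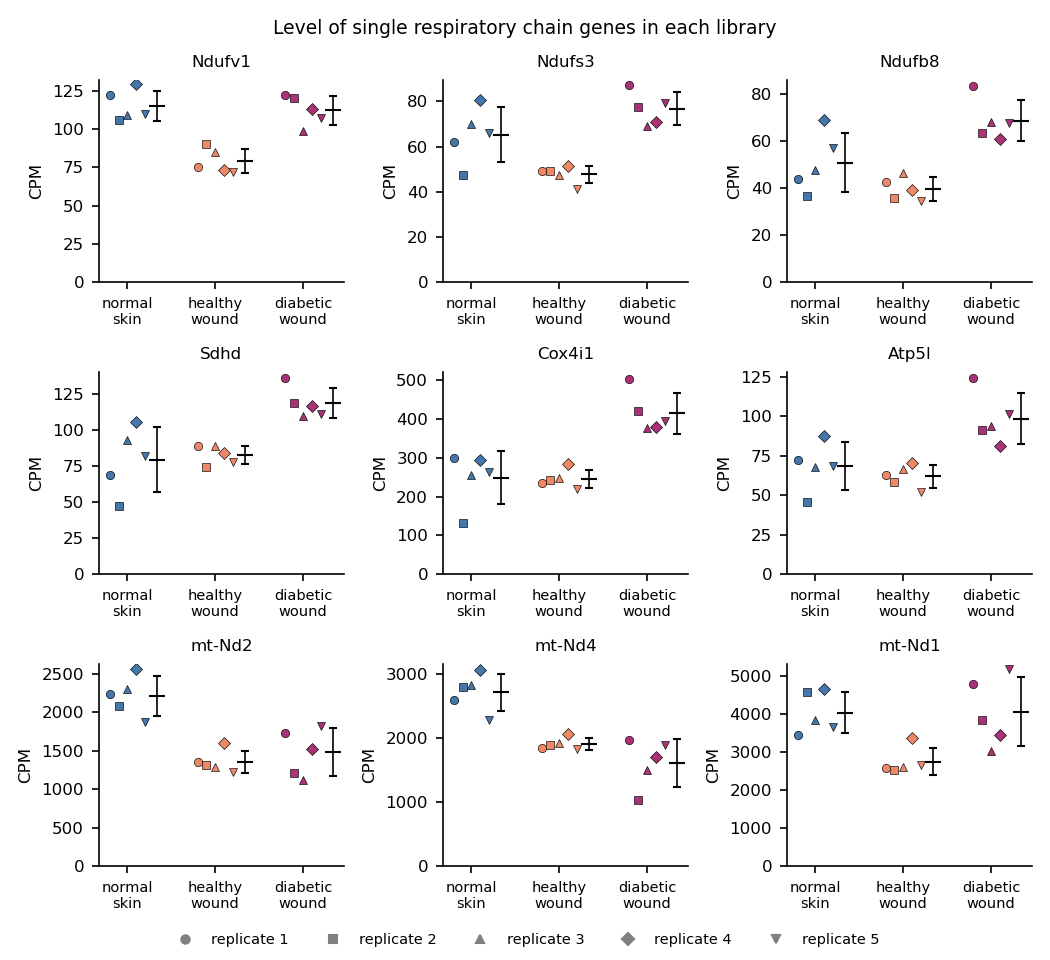
CPM (y axis, from 0) in each library for 9 respiratory chain genes, by group (x axis); symbols mark the replicate and bars give the group mean and SD over 5 libraries. Healthy wound libraries lie below both other groups for Ndufv1, diabetic wound libraries lie above both for Cox4i1 and Sdhd, and normal skin lies above both wound groups for mt-Nd2 and mt-Nd4.

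Against normal skin, few chain genes were called in wounds of diabetic mice, and the nuclear genes together showed no direction. By the edgeR test, 3 nuclear genes rose (Cox4i1, Sdhd and Atp5l) and 3 mitochondrial genes fell (mt-Nd4, mt-Nd2 and mt-Nd4l), where 19.1% of all genes tested were called, 10.7% higher and 8.44% lower; the chain's 6 of 95 lay under that background. The groups lay apart for 3 of the 95 in the upward and 2 in the downward direction, beside 6.09% and 5.26% of all genes, and at an unadjusted p under 0.05 10 were higher and 9 lower, beside 18.8% and 17%. The nuclear median was 0.02, with 42 genes positive and 40 negative, and by complex it was -0.04, -0.04, 0.14, 0.18 and -0.02 for complexes I to V. The mitochondrial median was -0.59, with 11 of 13 negative, beside -0.01 over all genes tested. This comparison shares the normal skin libraries with the first and the diabetic wound libraries with the second.

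Cox4i1 had a log2 fold change of 0.74 ± 0.20 over normal skin (SE; edgeR adjusted p = 0.0195), with no overlap. Sdhd was at 68.7, 47.7, 92.9, 106 and 82.1 CPM in normal skin and 136, 119, 110, 117 and 111 CPM in diabetic wound. Its groups did not overlap, and the log2 fold change was 0.58 ± 0.18 (SE; edgeR adjusted p = 0.034). Atp5l had a log2 fold change of 0.52 ± 0.17 (SE; edgeR adjusted p = 0.0429), with 1 normal skin library, replicate 4 at 87.6 CPM, inside the diabetic range.

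mt-Nd4, a proton-pumping subunit of complex I (mitochondrial genome, 10167 to 11544), was at 2590, 2800, 2830, 3060 and 2290 CPM in normal skin, 1840, 1890, 1920, 2070 and 1830 CPM in healthy wound and 1970, 1030, 1500, 1700 and 1890 CPM in diabetic wound. Both wound groups lay below all normal skin libraries. Its log2 fold change was -0.75 ± 0.19 in diabetic wound (SE; edgeR adjusted p = 0.0172) and -0.51 ± 0.19 in healthy wound (SE; edgeR adjusted p = 0.194). mt-Nd2, another membrane subunit of complex I (3914 to 4951), was at 2240, 2080, 2310, 2560 and 1880 CPM in normal skin, 1360, 1320, 1290, 1600 and 1230 CPM in healthy wound and 1730, 1210, 1120, 1530 and 1820 CPM in diabetic wound. It too was lower in every wound library than in any normal skin library, with log2 fold changes of -0.58 ± 0.18 in diabetic wound (SE; edgeR adjusted p = 0.04) and -0.70 ± 0.18 in healthy wound (SE; edgeR adjusted p = 0.0742).

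The mitochondrial transcripts did not all behave alike in diabetic wounds. mt-Nd1, which docks the matrix arm of complex I, was at 3460, 4590, 3840, 4650 and 3650 CPM in normal skin, 2590, 2540, 2610, 3360 and 2650 CPM in healthy wound and 4800, 3830, 3030, 3460 and 5180 CPM in diabetic wound. Diabetic wounds spanned the normal range (log2 fold change 0.01, edgeR adjusted p = 0.983) and healthy wounds lay below it (-0.55, edgeR adjusted p = 0.179). mt-Co1 averaged 11800 ± 1850, 10100 ± 875 and 9920 ± 2000 CPM, and mt-Cytb, the mitochondrial subunit of complex III, averaged 5090 ± 666, 3900 ± 250 and 3430 ± 764 CPM (SD, n = 5 each); neither passed the test in any comparison. mt-Nd5 (11742 to 13565) and mt-Nd6 (13552 to 14070), which overlap at their ends, had log2 fold changes of -0.68 and -0.59 in diabetic wound (edgeR adjusted p = 0.0758 and 0.0769). The counts of mt-Nd6 may hold RNA of the opposite strand, so these are not separate measures for certain.

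Of the 6 mitochondrial genes with uncertain counts, mt-Nd4l was called. It was at 41.7, 4.0, 63.0, 8.58 and 4.78 CPM in normal skin, 35.0, 7.95, 15.6, 3.48 and 4.76 CPM in healthy wound and 4.32, 3.91, 4.18, 5.29 and 4.59 CPM in diabetic wound. Normal skin replicates 1 and 3 carried the difference, replicates 2 and 5 lay within the diabetic range and replicate 4 above it (log2 fold change -2.45 ± 0.78 SE, edgeR adjusted p = 0.0396). Leaving out replicate 1 or replicate 3 of normal skin, replicate 3 of healthy wound, or any diabetic wound library, removed this call. The set of 6 had medians of -0.29, -1.07 and -0.73 in healthy wound against normal skin, diabetic wound against normal skin and diabetic against healthy wound, and the 7 well-covered genes had medians of -0.51, -0.58 and -0.10.

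Of the 6 calls against normal skin, mt-Nd4 and Cox4i1 held when any of the 15 libraries was left out. The count was 3 without normal skin replicate 1, 3 without normal skin replicate 3, 3 without healthy wound replicate 3, 3 without diabetic wound replicate 1, 2 without diabetic wound replicate 2 and 4 without diabetic wound replicates 4 and 5 together, and it was 0 in a fit of these 2 groups alone. Calls over all genes, 3272 in the full fit, were 2476, 2665, 2836, 2962, 2060, 1994 and 1430 in the same order of fits. The 1199 other short genes had a median of 0.21, with 17% called higher and 4.25% lower. With an offset for gene length, 3 chain genes were higher and 9 lower, 6 of the latter mitochondrial, and the mitochondrial median was -0.85. The direction of the nuclear calls depended on normal skin replicate 2. Without it 2 nuclear genes were called higher and 2 lower, with a nuclear median of -0.04. Without it and with the offset, 1 was higher, Cox4i1, and 6 were lower, with a nuclear median of -0.15. With the muscle markers as a covariate, 3 chain genes were called, mt-Nd4 and Cox4i1 among them, and the mitochondrial median was -0.54.

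The muscle-type subunits of complex IV had the 3 most negative log2 fold changes of all nuclear chain genes in both wound groups against normal skin. None passed the edgeR test in the fit of all 15 libraries. In healthy wound DESeq2 called Cox7a1 lower, and limma-voom called Cox7a1 and Cox8b lower. In diabetic wound against normal skin limma-voom called Cox7a1 lower. There edgeR did so with the offset for gene length, without normal skin replicate 2, and with both changes. Cox7a1, also found in brown fat, was at 13.4, 1.47, 6.92, 9.37 and 3.79 CPM in normal skin, 1.39, 2.11, 3.82, 1.07 and 1.34 CPM in healthy wound and 4.83, 1.86, 2.43, 2.55 and 2.72 CPM in diabetic wound. Cox6a2 was at 110, 34.7, 98.1, 64.7 and 20.1 CPM, 26.6, 29.4, 56.1, 5.40 and 6.84 CPM, and 25.6, 35.2, 7.80, 51.3 and 34.1 CPM, in the same order. Cox8b, which in mice is the heart, muscle and brown fat form, averaged 18.3 ± 12.4, 6.05 ± 4.82 and 7.45 ± 4.39 CPM (SD, n = 5 each). All 3 genes varied widely within groups, and the log2 fold changes in healthy wound were -1.84 for Cox7a1 (edgeR adjusted p = 0.0881), -1.40 for Cox6a2 (0.286) and -1.59 for Cox8b (0.228).

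Set against the common form of the same subunit, Cox6a2 was lowest where muscle markers were lowest. The log2 ratio of Cox6a2 to Cox6a1 counts was -0.44, -0.75, -0.58, -1.79 and -3.66 in normal skin, -2.48, -2.47, -1.42, -5.29 and -4.76 in healthy wound and -3.13, -2.38, -4.68, -1.87 and -2.19 in diabetic wound. The mean log2 CPM of the 19 muscle markers was 10.1, 10.49, 9.86, 9.03 and 7.43 in normal skin, 8.24, 8.31, 8.91, 6.16 and 6.34 in healthy wound and 8.56, 8.87, 6.55, 9.19 and 8.50 in diabetic wound. The 3 libraries with the fewest muscle counts, healthy wound replicates 4 and 5 and diabetic wound replicate 3, had the 3 lowest ratios, across both kinds of wound. The ratios of Cox7a1 to Cox7a2 averaged -3.67 ± 1.23, -5.31 ± 0.81 and -4.88 ± 0.26, and those of Cox8b to Cox8a averaged -2.71 ± 0.75, -4.56 ± 0.95 and -4.20 ± 1.04 in normal skin, healthy wound, then diabetic wound (SD, n = 5 each). For Cox7a1 the order was looser: healthy wound replicates 1 and 5, at 8.24 and 6.34 on the muscle scale, had ratios of -5.66 and -5.63, and the diabetic wound ratios stayed between -5.15 and -4.58 over muscle levels from 6.55 to 9.19. Normal skin replicate 2 had the highest muscle level but low ratios of Cox7a1 and Cox8b, which are genes of 535 and 360 bases. Of 6 brown fat markers, Cox8b among them, Ucp1 was at 0 in 9 libraries and averaged under 1 CPM in each group. Elovl3 averaged 59, 41.3 and 10.3 CPM in normal skin, healthy wound, then diabetic wound. Dio2 averaged 17.8, 8.78 and 6.18 CPM, Cidea 15, 12.8 and 6.19 CPM, and Ppargc1a 6.49, 2.21 and 7.14 CPM. The list summed to 116.5, 71.28 and 37.62 CPM on average, and the part of brown fat was not tested. Without Cox6a2, Cox7a1 and Cox8b the nuclear medians were -0.22, 0.04 and 0.29 in healthy wound against normal skin, diabetic wound against normal skin and diabetic against healthy wound.

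**Figure D5:**
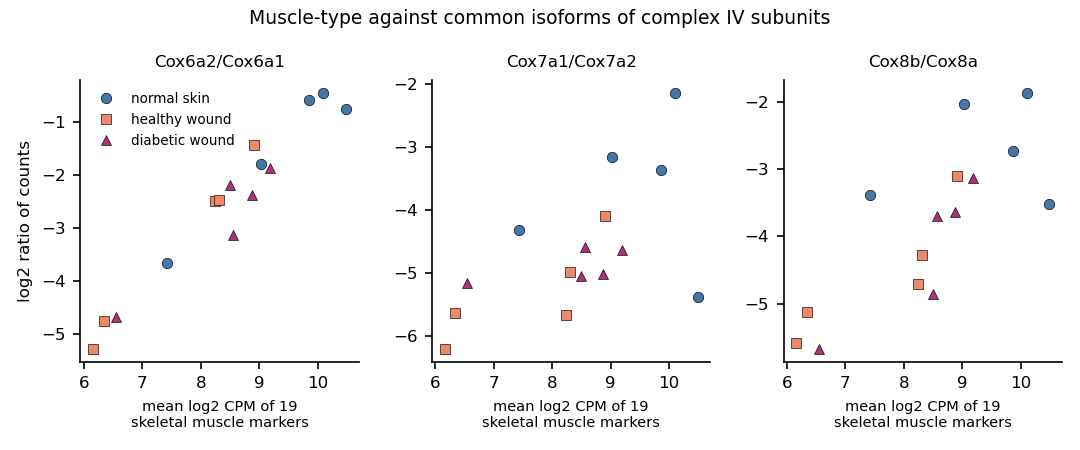
Log2 ratio of counts of the muscle-type to the common form of 3 complex IV subunits (y axis) against the mean log2 CPM of 19 skeletal muscle markers (x axis), 1 point for each of 15 libraries, coloured and shaped by group. Libraries with lower muscle levels have lower ratios of Cox6a2 to Cox6a1 in all groups; normal skin replicate 2, at 10.49 on the x axis, lies low for Cox7a1 and Cox8b. The y axes do not start at 0.

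The hypoxia-linked forms were not called by edgeR in the fit of all 15 libraries. Cox4i2, which replaces Cox4i1 under low oxygen in some cells, was at 1.11, 0, 1.93, 1.23 and 0.583 CPM in normal skin, 3.33, 1.22, 3.03, 3.32 and 4.03 CPM in healthy wound and 1.35, 0.705, 0.936, 1.34 and 0.362 CPM in diabetic wound. It was highest in 4 of 5 healthy wound libraries, with log2 fold changes of 1.61 ± 0.67 against normal skin (SE; edgeR adjusted p = 0.241) and -1.66 ± 0.68 in diabetic against healthy wound (SE; edgeR adjusted p = 0.121). In diabetic against healthy wound it was called lower by edgeR without normal skin replicate 2, with and without the offset for gene length, and by DESeq2 and limma-voom. Ndufa4l2, a target of hypoxia signalling related to Ndufa4, was at 104, 37.3, 68.6, 117 and 95.5 CPM in normal skin, 95.5, 48.3, 109, 94.3 and 124 CPM in healthy wound and 84.4, 36.7, 152, 19.3 and 5.85 CPM in diabetic wound. Diabetic wounds held both the highest and the lowest value, and the groups overlapped in every comparison.

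Genes that feed, build and control the chain were counted in the same fit. Their calls also depended on single libraries. Without healthy wound replicate 5, all genes together gave 3 calls in healthy wound against normal skin and 230 in diabetic against healthy wound. For chain and pathway genes named by rule, leaving out 1 library removed a call 64 times in healthy wound against normal skin. It did so 76 times in diabetic wound against normal skin and 136 times in diabetic against healthy wound. Of 16 citric acid cycle genes, which supply NADH and succinate, 3 fell in healthy wound (Dlat, Idh3a and Sucla2), beside 0.35% of all genes, and all 16 had negative log2 fold changes, with a median of -0.50. Idh3a, a subunit of isocitrate dehydrogenase, was at 96.9, 150, 112, 137 and 100 CPM in normal skin and 69.9, 82.8, 78.5, 59.4 and 51.0 CPM in healthy wound. Its groups did not overlap (log2 fold change -0.80 ± 0.17 SE, edgeR adjusted p = 0.0411). In diabetic against healthy wound 4 rose (Dld, Suclg2, Sucla2 and Dlst), beside 5.13% of all genes, and 0 fell, with a median of 0.30. Against normal skin 4 fell in diabetic wound (Ogdh, Idh3a, Cs and Fh1), beside 8.44% of all genes.

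Of 23 genes of electron carriers and of nucleotide and metabolite transport, Coq9, needed to make ubiquinone, fell in healthy wound (log2 fold change -0.84, edgeR adjusted p = 0.0494). Vdac2, a channel of the outer membrane, rose in diabetic wound over healthy wound (0.50, edgeR adjusted p = 0.0355) and over normal skin (0.45, edgeR adjusted p = 0.0308). Ckmt2, the creatine kinase of muscle mitochondria, fell against normal skin (-2.25, edgeR adjusted p = 0.0242). Each was 1 of 23 in its direction, beside 0.35% of all genes lower in healthy wound, 5.13% higher in diabetic against healthy wound, and 10.7% higher and 8.44% lower in diabetic wound against normal skin. Of 43 assembly factors, 0 passed in healthy wound by edgeR, where 4 were lower and 0 higher at an unadjusted p under 0.05. In diabetic wound 1 rose and 4 fell against normal skin, and 1 rose and 1 fell against healthy wound. Beside 10.7% and 8.44% of all genes in the first and 5.13% and 4.02% in the second, these counts lay near or under the background. The riser was Cox20 in both, an assembly factor of complex IV at 1.74, 2.82, 1.62, 2.74 and 5.55 CPM in diabetic wound and at most 1.11 CPM in all other libraries, and the one that fell in both was Timmdc1, an assembly factor of complex I at 12.1 ± 3.99 CPM in diabetic wound and 20.1 ± 2.95 CPM in healthy wound (SD, n = 5 each).

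Among 23 genes for upkeep and expression of mitochondrial DNA, Lrpprc, which stabilises mitochondrial transcripts, and Tfb1m fell in diabetic wound against normal skin (log2 fold changes -0.63 and -1.42, edgeR adjusted p = 0.0125 and 0.0182). Tfb2m, a transcription factor of mitochondrial DNA, and Tbrg4 rose against healthy wound (0.65 and 0.80, edgeR adjusted p = 0.0405 and 0.0415). These 2 of 23 lower and 2 of 23 higher stood beside 8.44% and 5.13% of all genes. Of 16 regulators of mitochondrial biogenesis, Nrf1, Gabpa and Gabpb1 rose in diabetic wound against normal skin (0.60, 0.65 and 0.94, edgeR adjusted p = 0.0388, 0.0279 and 0.0176). They encode transcription factors, or subunits of one, that act at promoters of nuclear chain genes. Ppara, a receptor that controls fatty acid oxidation genes, fell in healthy wound (-1.79, edgeR adjusted p = 0.0481). Over all genes 10.7% and 0.35% were called in these directions. Ppargc1a, a coactivator of mitochondrial biogenesis, was at 5.59, 12.7, 6.12, 4.91 and 3.09 CPM in normal skin, 2.45, 2.28, 2.57, 2.30 and 1.46 CPM in healthy wound and 4.57, 2.18, 1.37, 23.7 and 3.92 CPM in diabetic wound. It was lower in every healthy wound library than in any normal skin library, diabetic wound replicate 4 was far above the rest, and no comparison passed the test (smallest edgeR adjusted p = 0.103). Of 5 tested genes of uncoupling and heat production, Dio2 and Elovl3 fell in diabetic wound against normal skin, beside 8.44% of all genes, and none passed by edgeR in the other comparisons, where 0 in healthy wound and 1 in diabetic against healthy wound had an unadjusted p under 0.05. Of 6 chain subunits whose names fall outside the rule, 0 passed in any comparison by edgeR, where 0 reached an unadjusted p under 0.05.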

How the data were processed

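The deposited table holds raw counts of reads for each gene in 15 libraries, as the authors made them; per the labels' protocols, poly-A RNA was selected from TRIzol extracts and libraries were made with a kit that does not mark strand. Not given in the sources used here: aligner, counting program and genome build. Coordinates and gene names are those of the table. Column numbers 5 to 9 of the diabetic wounds correspond to replicates 1 to 5 by the titles. Unused columns of per-sample values numbered 0. Rows without a symbol (1125) stayed in by identifier.

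The test was the quasi-likelihood F-test of edgeR 4.0.16 with robust dispersion, TMM scaling and filterByExpr in R 4.3.3, in 1 fit of the 3 groups with 12 residual degrees of freedom. p-values were adjusted by Benjamini-Hochberg over all 17122 genes tested and calls used a threshold of 0.05. Printed CPM use TMM-scaled library sizes, mean log2 CPM a prior count of 2 and isoform ratios a prior count of 0.5. SE is the absolute log2 fold change divided by the square root of F.

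The members, pathway lists, markers and tests were chosen with earlier results of these data known, and so was the rule for named genes: every member called, the 2 smallest p and the highest mean CPM of each class, a fixed list of subunits, up to 3 called genes per pathway list and Ppargc1a. Genes outside it were named after their values were seen. Of the genes the rule names, 1 is not reported here. Lists are described by counts and medians without a test.

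No library repeated another: chi-square over degrees of freedom between libraries of a group was at least 42.3 for normal skin, 38.8 for healthy wound and 76.2 for diabetic wound. On simulated counts of 16804 genes the procedure called 19 of 99 genes changed by a log2 fold change of 1 and 57 of 100 changed by 2 in diabetic wound against normal skin, with 1 false call, and 19 of 99 and 61 of 100 with 2 false calls in diabetic against healthy wound.

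Alternatives were RLE size factors, library size alone, scaling without mitochondrial genes, no low-count filter, a stricter one (a mean of 5 CPM or more and 1 CPM or more in 5 libraries), limma-voom with quality weights (limma 3.58.1), DESeq2 1.42.0, the 2 groups compared alone, a replicate block, a covariate of 19 muscle markers and leaving out each library of the 2 groups compared in turn. An offset for gene length, that offset without normal skin replicate 2, leaving out diabetic wound replicates 4 and 5 together, and leaving out each library of the third group in the fit were added after the data were seen. No sequences are shown.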

Additional observations from a re-analysis of the deposited data

Results flagged for a closer look

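Single libraries stood far from the rest of their group, by Dixon's test with a critical value of 0.71 for 5 libraries, in 17 of the 159 groups of values tested (10.7%), where chance gives about 1 in 20. Normal skin replicate 2 accounted for 8 of the 17. Its mean log2 CPM of the nuclear chain genes was 5.19 (nearest library 5.98), its short genes lay at -0.87 against its long genes on the log2 scale (nearest 0.01), and the ribosomal RNA genes of mitochondrial DNA took 0.276% of its counts (nearest 0.092%). Among single subunits it was low for Atp5g1 at 52.7 CPM (nearest 88.8), Cox4i1 at 132 CPM (nearest 255), Cox8a at 25.6 CPM (nearest 111) and Uqcrq at 43.7 CPM (nearest 123), and high for mt-Nd3 at 19.9 CPM (nearest 10.5).

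Healthy wound replicate 5 had the lowest share of counts from nuclear chain genes in its group, 0.576% (nearest 0.694%), and is the library without which no chain gene was called in diabetic against healthy wound. Without it 230 of all genes were called there, beside 1567 in the full fit. Diabetic wound replicate 5 had 0.266% of its counts in mitochondrial ribosomal RNA genes (nearest 0.137%). In the block of mitochondrial genes with uncertain counts, mt-Co2 was at 128 CPM in healthy wound replicate 3 (nearest 51.4), and mt-Co3 was at 219 CPM in normal skin replicate 3 (nearest 41.9), 152 CPM in healthy wound replicate 2 (nearest 51.7) and 59.7 CPM in diabetic wound replicate 1 (nearest 26.3). mt-Nd1 was at 3360 CPM in healthy wound replicate 4 (nearest 2650), Ndufb7 at 43.3 CPM in the same library (nearest 39.6), and Cox7a1 at 4.83 CPM in diabetic wound replicate 1 (nearest 2.72).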

How the results depend on the processing

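No called gene changed direction in the alternatives run. The nuclear median in diabetic wound against normal skin, 0.02, lay on either side of 0, between -0.15 and 0.11. The nuclear and mitochondrial medians moved by less than the spread between libraries, an SD of 0.27 and 0.294 in mean log2 CPM. That bound is loose, since the nuclear medians were only -0.22, 0.02 and 0.30. The last of these, in diabetic against healthy wound, was 0.19 with the length offset. Group means of count shares and isoform ratios also moved by less than their spread. In normal skin replicate 2, with 0 counts of Cox4i2, the ratio to Cox4i1 moved from -11.95 to -9.95 with a prior count of 2. The number of chain genes called did move. Healthy wound against normal skin had 1 (193 of all genes), and the count was 0 with library size alone, 0 without a low-count filter (91 of all genes), 11 with DESeq2 (1050), 24 with limma-voom (1853), 2 with the 2 groups alone (537), 0 with the muscle covariate (58), 2 with the length offset, 0 with that offset without normal skin replicate 2 (97) and 3 without diabetic wound replicates 4 and 5 (605). Diabetic wound against normal skin had 6 (3272), and the count was 10 with the stricter filter, 11 with DESeq2, 13 with limma-voom, 0 with the 2 groups alone (1430), 3 with the muscle covariate, 12 with the length offset and 13 with that offset without normal skin replicate 2; without a filter 2138 of all genes were called. Diabetic against healthy wound had 9 (1567), and the count was 1 without a filter (574), 17 with DESeq2 (3036), 25 with limma-voom (4049), 3 without diabetic wound replicates 4 and 5 (658) and 14 with the length offset without normal skin replicate 2 (2374); the 2 groups alone gave 801 of all genes. Leaving out any 1 of the 15 libraries gave 0 to 2, 2 to 8 and 0 to 17 chain genes called in healthy wound against normal skin, diabetic wound against normal skin and diabetic against healthy wound. Over all genes the ranges were 3 to 392, 2029 to 3824 and 230 to 2925.

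With a replicate block the counts were 0, 3 and 0 in the same order (91, 2207 and 173 of all genes). Whether the numbers pair the samples was not settled. Of 15 pairs of same-numbered libraries 3 had a correlation of deviations over 0.1 (range -0.21 to 0.24). All 3 were of normal skin with healthy wound, at 0.24, 0.23 and 0.12 for replicates 1, 4 and 5. Libraries of unlike number were not compared, so these values have no reference. In the simulated counts most changes of 1 on the log2 scale were missed, but few genes were changed there, drawn at random from all genes tested. The data had 3272 calls in diabetic wound against normal skin and 1567 against healthy wound. Several chain genes were called at log2 fold changes under 1 in size. The simulated rate therefore cannot be carried over to the chain. Genes that were not called may still differ.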
